A study of Mus musculus with 9 samples.

Results

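The genes described here are 10 that mark follicular helper T cells or take part in their meeting with B cells: Cxcl13, Cxcr5, Cd40lg, Icos, Pdcd1, Btla, Cd200, Slamf6, Sh2d1a and Il21. They were taken by symbol from a count table of 46078 genes. All 10 were in the table and all passed the filter on low counts, which kept 15401 genes for testing. Icos was listed under 2 Ensembl IDs, of which one had no count in any library and was not used.

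Follicular helper T cells are the CD4 T cells that enter B cell follicles and help B cells in germinal centres. The chemokine CXCL13 draws cells that carry its receptor CXCR5 into the follicle, CD40L and ICOS deliver and receive the contact signals exchanged with B cells, and IL-21 is the cytokine the helper cell secretes. PD-1, BTLA and CD200 are inhibitory surface proteins of these cells, and SAP, the product of Sh2d1a, is the adaptor through which SLAM family receptors such as SLAMF6 (Ly108) hold T and B cells together.

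Sequencing of RNA 3′ ends compared 6 MYCN-driven T cell lymphomas, collected from thymus, with 3 control preparations of CD4+ T cells from spleen, all from C57BL/6J mice. MYCN is a MYC family transcription factor. The labels give no promoter or cell type for the MYCN driver, no age, sex, treatment or batch, and do not say whether the controls carried the driver or whether each library came from a separate animal, so p-values measure the spread between these samples. Tissue of origin and group cannot be told apart. Reads counted in genes ranged from 11170704 to 15769679 in lymphoma and from 8099960 to 10808828 in CD4, and levels are given as counts per 1000000 after TMM scaling (CPM). A library with 0 counts of a gene may hold up to 3, which stood for 0.183 to 0.359 CPM depending on the library (counting error only). Lymphoma 53 stood apart from the other lymphomas and had the highest level of 30.5% of all tested genes, so results that rest on it are also given without it.

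The identity of the cells was checked through marker genes. Lymphoma and control libraries both held T cell transcripts. Of 12 T cell markers 0 were higher and 2 lower (Cd4 and Cd2), where 24.7 and 21.9% of all tested genes were. Cd3e, a subunit of the T cell receptor complex, averaged 176 CPM in lymphoma (SD 23.4, n = 6) beside 157 CPM in CD4 (SD 30.0, n = 3). The coreceptor Cd4 itself fell from a CD4 mean of 240 CPM (SD 35.4, n = 3) to a lymphoma mean of 35.3 CPM (SD 29.2, n = 6), a log2 fold change of -2.76 (SE 0.717) with an edgeR adjusted p of 0.0111. Cd8a had 29.4 CPM in lymphoma 53 and at most 1.53 CPM in the other lymphomas, against 25.6 to 31.7 CPM in CD4. The control libraries also held B cell transcripts. All 14 B cell markers were lower in lymphoma, where 21.9% of all tested genes were. Their summed level was 2820 to 3360 CPM in CD4 and 38.4 to 101 CPM in lymphoma. Ms4a1 and Pax5 averaged 207 and 120 CPM in CD4 against 0.937 and 0.831 CPM in lymphoma. Several of the genes described here, among them Cxcr5, Btla and Cd200, are also known from B cells. In such bulk samples, fewer cells of a type and less RNA per cell cannot be told apart.

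**Figure D1:**
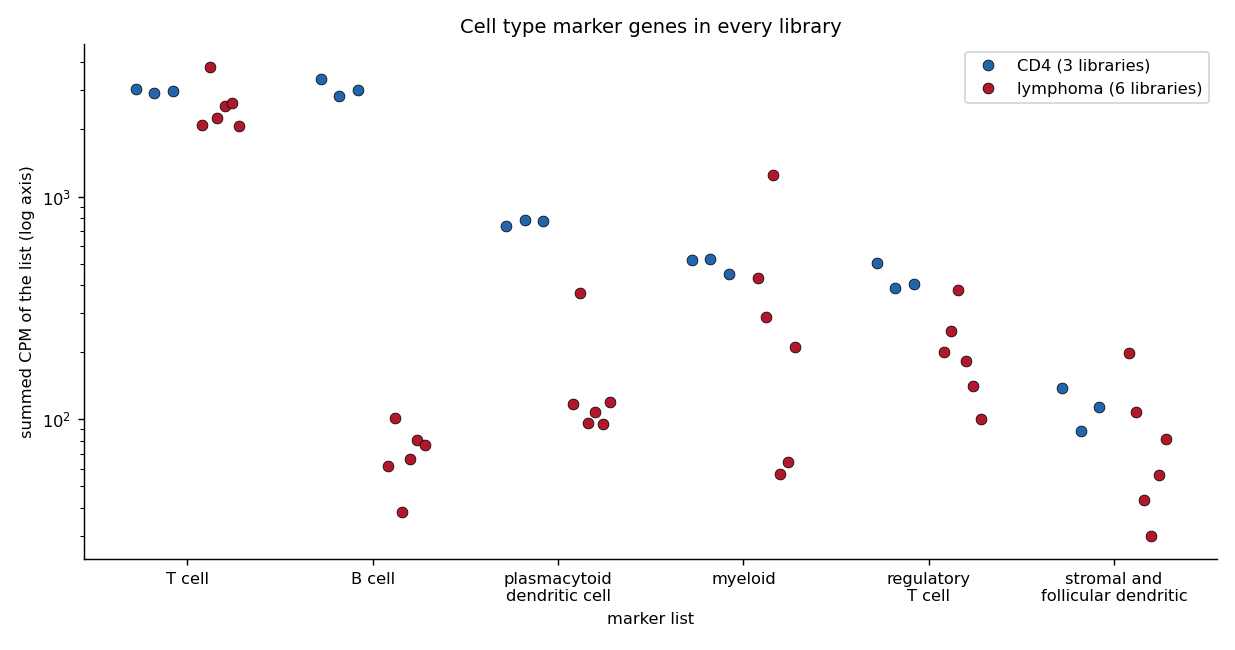
Summed CPM of 6 lists of cell type marker genes in every library, on a log axis, with 3 CD4 libraries in blue and 6 lymphomas in red. B cell markers lie at 2820 to 3360 CPM in CD4 and at 38.4 to 101 CPM in lymphoma, while T cell markers lie at 2930 to 3040 and 2070 to 3800 CPM.

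Promoter sequence was available from RefSeq (GRCm38.p6) for 6 of the 10 genes, Pdcd1, Slamf6, Il21, Cxcl13, Btla and Cd200. The 250 bases before the start site are shown for 3 of them, Pdcd1 and Cxcl13 as genes that were higher in lymphoma and Il21 as one that was lower. They lie at chr1:94052554-94052803 on the minus strand, chr5:95956689-95956938 on the plus strand and chr3:37232637-37232886 on the minus strand, and are written 5′ to 3′ along the gene.
Pdcd1: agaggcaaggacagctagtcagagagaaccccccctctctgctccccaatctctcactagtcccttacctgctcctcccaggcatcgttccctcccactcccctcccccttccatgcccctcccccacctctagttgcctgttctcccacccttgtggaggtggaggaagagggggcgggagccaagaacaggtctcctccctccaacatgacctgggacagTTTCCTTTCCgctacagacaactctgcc
Cxcl13: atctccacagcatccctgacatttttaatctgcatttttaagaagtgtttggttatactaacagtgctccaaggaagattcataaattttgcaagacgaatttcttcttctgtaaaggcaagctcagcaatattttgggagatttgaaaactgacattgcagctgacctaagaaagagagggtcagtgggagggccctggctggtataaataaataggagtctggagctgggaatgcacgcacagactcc
Il21: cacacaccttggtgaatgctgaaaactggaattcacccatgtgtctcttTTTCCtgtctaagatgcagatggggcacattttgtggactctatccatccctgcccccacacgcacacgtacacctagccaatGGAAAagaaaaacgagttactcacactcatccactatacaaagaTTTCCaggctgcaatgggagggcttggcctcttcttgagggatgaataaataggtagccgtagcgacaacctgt
Capitals mark GGAAA, the core that NFAT factors bind downstream of the T cell receptor, on either strand. It is present in the windows of Pdcd1 and Il21, which moved in opposite directions, and so in 2 of 6 windows, against 55.6% of all 32851 promoter windows of that length. In the Pdcd1 window 2 matches lie side by side. The E-box CACGTG, which MYC family proteins bind, is in 0 of the 6 windows and in 6.02% of all windows. These are matches of letters in a fixed window and were not tested for binding.

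Lymphomas and CD4 T cells differed at nearly all of these genes, and in both directions. Pdcd1, Sh2d1a and Cxcl13 rose in lymphoma, while Cd40lg, Icos, Btla, Il21, Cxcr5 and Cd200 fell. Slamf6 was lower in every lymphoma without passing the test. In edgeR's quasi-likelihood test, adjusted after Benjamini and Hochberg over all tested genes, 3 of 10 were thus higher, where the share of all tested genes was 24.7%, and 6 of 10 were lower, where it was 21.9%. The median log2 fold change of the 10 genes was -2.20, beside 0.04 over all tested genes. 3 of the falls (Cd40lg, Icos and Btla) were fitted at 32-fold or more, a size reached by 2.03% of tested genes. With at least a 2-fold change also required, 2 of 10 were higher (17.9% of tested genes) and 6 of 10 lower (17.2%). The genes were chosen with earlier results of these data known, so these counts describe the list.

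**Figure D2:**
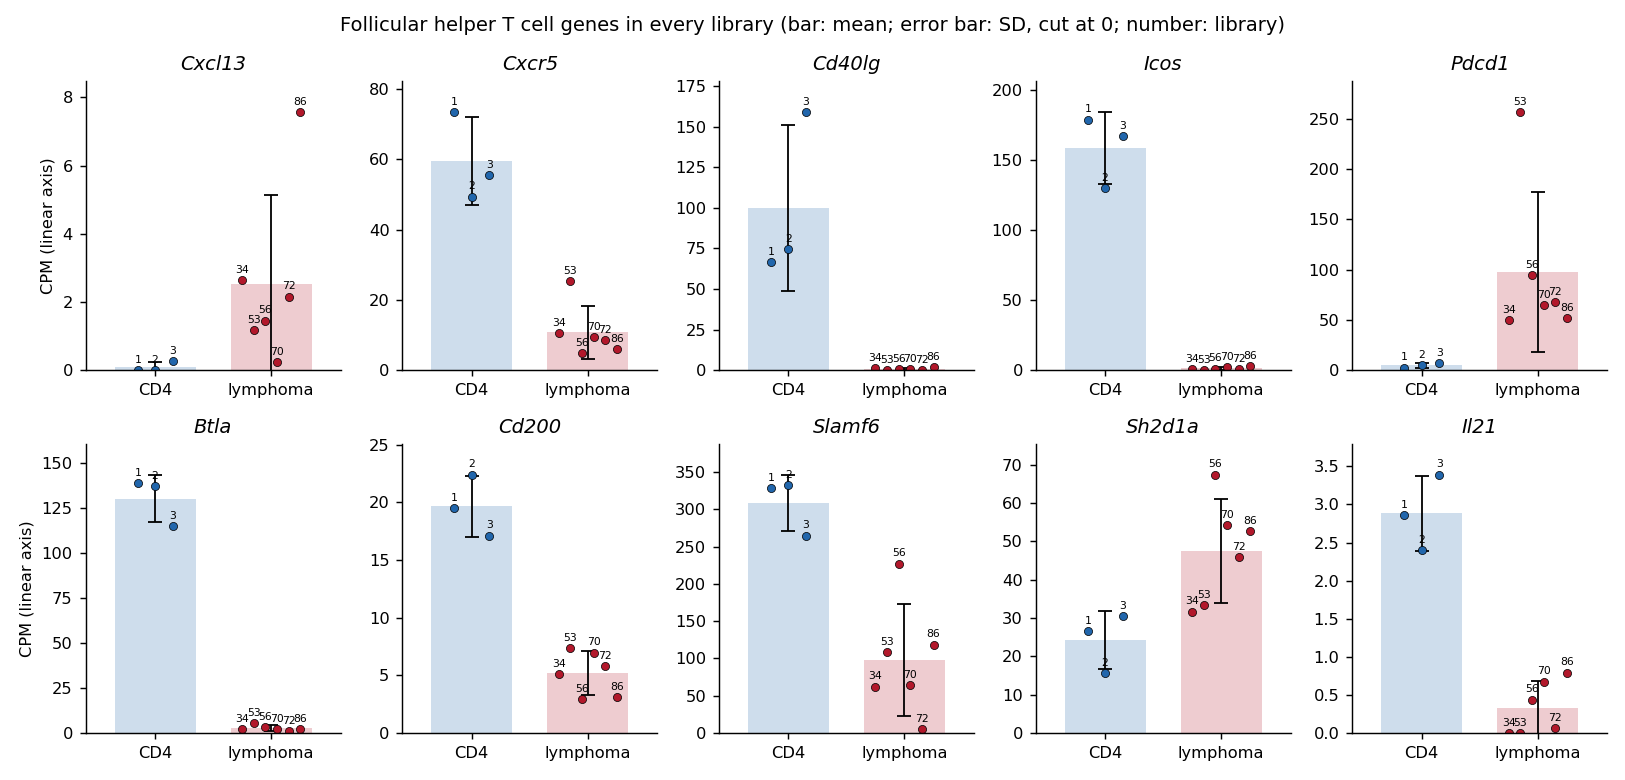
CPM of the 10 genes in each of 3 CD4 libraries (blue) and 6 lymphomas (red), on linear axes, with the mean as a bar, the SD as an error bar cut at 0 and the library number above each point. Pdcd1 and Sh2d1a lie higher in every lymphoma than in every CD4 library, 7 genes lie lower in every lymphoma, and Cxcl13 overlaps through lymphoma 70.

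The direction was the same in nearly every tumour. Of the 60 pairs of a gene and a lymphoma, 59 lay outside the range of the 3 CD4 libraries. In each of the 6 lymphomas 7 of the 10 genes were below all CD4 libraries, where the share of all tested genes was 35.8, 39.2, 37.2, 35.0, 35.7 and 38.0% for lymphomas 34, 53, 56, 70, 72 and 86. In 5 lymphomas 3 genes were above all CD4 libraries, and in lymphoma 70 there were 2. The share of all tested genes above all CD4 libraries was 39.3, 37.8, 38.7, 38.8, 38.3 and 39.5% in the same order. No overlap between the groups was seen for 2 of 10 genes on the higher side (22.6% of tested genes) and for 7 of 10 on the lower side (22.3%), or 9 of 10 in either direction (44.9%).

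**Figure D3:**
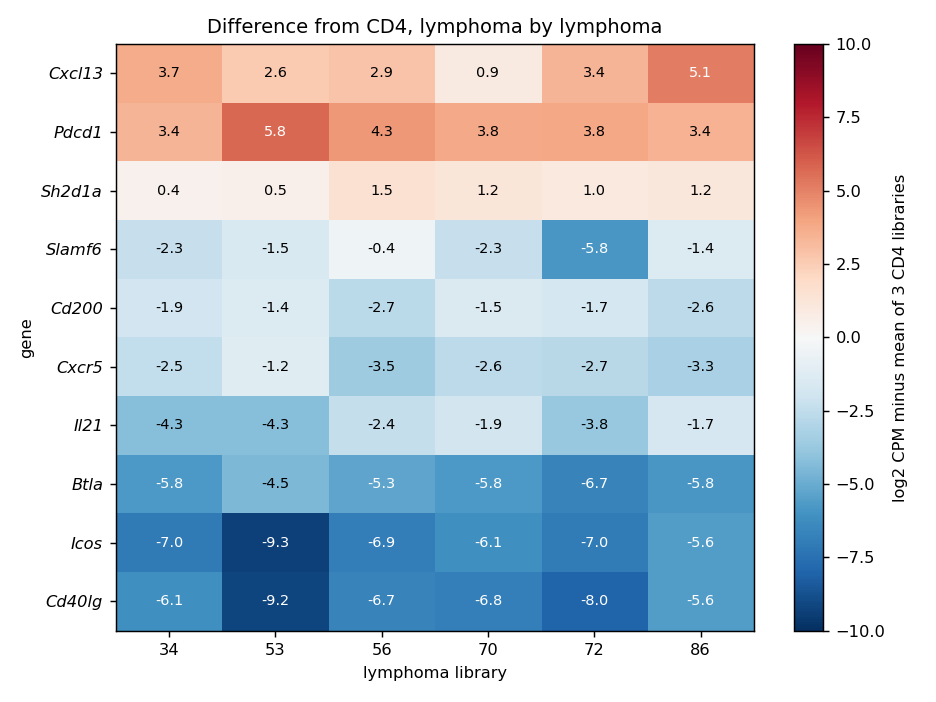
Difference of each lymphoma from the mean of the 3 CD4 libraries in log2 CPM (prior count of 2), with genes in rows, lymphomas in columns, red for higher and blue for lower. Differences run from -9.32 (Icos, lymphoma 53) to 5.76 (Pdcd1, lymphoma 53), and every gene keeps 1 sign in all 6 lymphomas.

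The chemokine and its receptor moved in opposite directions. Cxcl13 (ENSMUSG00000023078, chromosome 5, 95956951 to 95961068, plus strand, GRCm38) had 0, 0 and 3 counts in CD4 1, 2 and 3. The lymphomas had 0.245 CPM (4 counts, lymphoma 70) at the lowest, a median of 1.80 CPM and 7.57 CPM (105 counts, lymphoma 86) at the highest. Lymphoma 70 fell within the CD4 range and the other 5 lay above it. As CD4 held only 3 counts in all, the change is given as a ratio of pooled levels, 25.0 with an exact 95% interval of 8.43 to 122 for counting error alone (edgeR adjusted p = 0.0156). The ratio was 15.3 (5.10 to 75.4) without lymphoma 86, and the call was lost without CD4 1 (adjusted p = 0.0536), without CD4 2 (0.0578) and with limma voom (0.0805). Without CD4 3 no control count was left. Known sources of CXCL13 are stromal cells, follicular dendritic cells among them, and some macrophages. Stromal and follicular dendritic markers summed to 30.0 to 199 CPM in lymphoma and 89.0 to 138 CPM in CD4, with Pdgfra at or under 0.523 CPM in all lymphomas. Madcam1, Ccl19 and Ccl21a were listed at 0 in all 9 libraries, and whether the counting could register them is not known. Dcn, a matrix proteoglycan, had 0 counts in every CD4 library and 5.60, 3.56, 3.05, 1.71, 3.99 and 7.35 CPM in lymphomas 34, 53, 56, 70, 72 and 86. Lymphomas 86, 34 and 72 were thus the highest, in that order, for both Dcn and Cxcl13, and lymphoma 70 was the lowest for both. Col1a1, a collagen gene, was lowest in lymphoma 86 (7.21 CPM) and highest in lymphoma 53 (33.4 CPM). Of 12 myeloid markers 5 were lower and 0 higher, where 21.9 and 24.7% of all tested genes were. Their summed levels were 56.7 to 1240 CPM in lymphoma and 448 to 524 CPM in CD4. Of the macrophage genes, Csf1r fell from a mean of 44.6 to 6.75 CPM, while Lyz2 (84.6 and 45.3 CPM in CD4 and lymphoma, edgeR adjusted p = 0.142) and C1qb (28.9 and 26.0 CPM, adjusted p = 0.838) did not pass the test. Lymphoma 86, the highest for Cxcl13, was also the highest lymphoma for Csf1r (13.8 CPM), Adgre1 (5.12 CPM), Cd68 (21.3 CPM) and Itgam (10.8 CPM). Its summed myeloid level was 211 CPM, below lymphomas 56 (1240), 34 (429) and 53 (289). The other myeloid markers peaked in lymphoma 53 (C1qa, C1qb, Cd14, Ly6c2 and Itgax), 56 (Lyz2 and S100a8) or 72 (Flt3). Lymphoma 70, the lowest for Cxcl13, was the lowest for C1qa (4.71 CPM), C1qb (6.85 CPM) and Cd68 (6.30 CPM). It was also lowest for Itgam, Lyz2 and Cd14. Lymphoma 72 was lowest for Csf1r, Adgre1, Ly6c2 and S100a8, and lymphoma 56 for Itgax and Flt3. The part of these cells in the Cxcl13 values was not tested.

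Cxcr5 (ENSMUSG00000047880, chromosome 9, 44511787 to 44561877, minus strand) had 73.5, 49.4 and 55.6 CPM in CD4 1, 2 and 3. The lymphomas ran from 4.87 CPM (lymphoma 56) over a median of 8.99 CPM to 25.4 CPM (lymphoma 53), all below every CD4 library. The gene fell 5.53-fold (log2 fold change -2.47, SE 0.425, edgeR adjusted p = 0.000667). Without lymphoma 53 the change was -2.92 (SE 0.256, adjusted p = 2.67e-06). B cell markers fell with it, as given above, and their part in the fall was not tested. In the GENCODE M21 annotation 110 of its 3332 exon bases also belong to Bcl9l on the other strand, and the strand setting of the counting is not given.

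Both contact signals to and from B cells fell to low levels, with at most 25 counts of Cd40lg and 44 of Icos in any lymphoma. Cd40lg (ENSMUSG00000031132, chromosome X, 57212143 to 57224042, plus strand), the ligand that licenses B cells through CD40, had 66.4, 74.5 and 159 CPM in CD4 1, 2 and 3. In the lymphomas it ran from 0 counts (lymphoma 53, which allows up to 0.274 CPM) over a median of 0.700 CPM to 1.80 CPM (lymphoma 86). The fall was 128-fold (log2 fold change -7.00, SE 0.642, edgeR adjusted p = 1.39e-05). CD4 3 held more than 2 times the level of the other controls, yet all 3 lay far above all 6 lymphomas.

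Icos (ENSMUSG00000026009, chromosome 1, 60977927 to 61000320, plus strand), the costimulatory receptor that sustains the follicular helper state, had 179, 130 and 167 CPM in CD4 1, 2 and 3. Among the lymphomas Icos ran from 0.0912 CPM (1 count, lymphoma 53) over a median of 1.10 CPM to 3.17 CPM (44 counts, lymphoma 86). It fell 109-fold (log2 fold change -6.76, SE 0.528, edgeR adjusted p = 4.29e-06), with no overlap between the groups. Lymphoma 53 was the lowest and lymphoma 86 the highest for both Cd40lg and Icos.

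The genes of the inhibitory surface proteins did not move together. Pdcd1 (ENSMUSG00000026285, chromosome 1, 94038305 to 94052553, minus strand), which encodes PD-1, a receptor that dampens T cell receptor signalling, had 2.67, 4.91 and 7.33 CPM in CD4 1, 2 and 3. In the tumours Pdcd1 ran from 49.8 CPM (lymphoma 34) over a median of 66.1 CPM to 257 CPM (lymphoma 53). The lowest lymphoma was thus well above the highest control. The rise was 19.5-fold (log2 fold change 4.29, SE 0.694, edgeR adjusted p = 0.000629). Without lymphoma 53, whose level lay far from the 49.8 to 94.9 CPM of the other 5, it was 3.71 on the log2 scale (SE 0.346, adjusted p = 5.40e-06), and the gene was higher in 5 of 5 remaining lymphomas.

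Btla (ENSMUSG00000052013, chromosome 16, 45224315 to 45257670, plus strand), an inhibitory receptor of T and B cells, had 139, 137 and 115 CPM in CD4 1, 2 and 3. The lymphomas ran from 1.11 CPM (lymphoma 72) over a median of 2.26 CPM to 5.56 CPM (lymphoma 53). Btla fell 47.9-fold (log2 fold change -5.58, SE 0.363, edgeR adjusted p = 5.97e-07). B cell markers fell with it, and their part was not tested.

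Cd200 (ENSMUSG00000022661, chromosome 16, 45382135 to 45409053, minus strand), a surface protein that restrains cells carrying its receptor, had 19.5, 22.4 and 17.1 CPM in CD4 1, 2 and 3. Lymphoma levels of Cd200 ran from 2.91 CPM (lymphoma 56) over a median of 5.45 CPM to 7.39 CPM (lymphoma 53). The fall was 3.77-fold (log2 fold change -1.92, SE 0.336, edgeR adjusted p = 0.000663), the smallest among the 6 genes that fell, and no lymphoma reached a control. The lymphoma values of Cd200 spread over 2.54-fold, against 5.01-fold for Btla and 5.16-fold for Pdcd1.

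The SLAM receptor and its adaptor gave the smallest changes of the list. Slamf6 (ENSMUSG00000015314, chromosome 1, 171917515 to 171953170, plus strand) had 328, 332 and 265 CPM in CD4 1, 2 and 3. The lymphomas ran from 5.16 CPM (79 counts, lymphoma 72) over a median of 85.9 CPM to 227 CPM (lymphoma 56), a 44.0-fold spread. All 6 lay below all controls, but the log2 fold change of -1.66 (SE 0.757) missed the threshold (edgeR adjusted p = 0.103). It passed without lymphoma 72 (-1.42, adjusted p = 0.0113), without lymphoma 56 (-2.10, adjusted p = 0.0355), with lymphomas 34, 70 and 72 averaged (adjusted p = 0.0384) and with limma voom (adjusted p = 0.0339). B cell markers fell in the same comparison, and their part in the Slamf6 values was not tested.

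Sh2d1a (ENSMUSG00000005696, chromosome X, 42502453 to 42529330, plus strand) had 26.5, 15.7 and 30.4 CPM in CD4 1, 2 and 3. Lymphoma levels of Sh2d1a ran from 31.7 CPM (lymphoma 34) over a median of 49.3 CPM to 67.4 CPM (lymphoma 56). Every lymphoma was above every control, lymphoma 34 by a small margin over CD4 3. The rise was 1.96-fold (log2 fold change 0.97, SE 0.289, edgeR adjusted p = 0.0158), and the call was lost without CD4 2, the lowest control (0.75, adjusted p = 0.0788). Of its 5505 annotated exon bases 1465 are shared with Tenm1 on the other strand, which had 36 counts over all libraries.

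Il21 (ENSMUSG00000027718, chromosome 3, 37222759 to 37232636, minus strand) had 2.86, 2.40 and 3.39 CPM in CD4 1, 2 and 3, from 30, 20 and 37 counts. The lymphomas had 0 counts in libraries 34 and 53, which allows up to 0.193 and 0.274 CPM, a median of 0.251 CPM and 0.793 CPM (11 counts, lymphoma 86) at the highest. The groups did not overlap, and the fall was 8.50-fold (log2 fold change -3.09, SE 1.03, edgeR adjusted p = 0.0274). The call was lost when any 1 of the 3 control libraries was left out (adjusted p = 0.0608, 0.0579 and 0.0808 without CD4 1, 2 and 3). Of its 5259 annotated exon bases 469 are shared with Gm12534 on the other strand, which had 0 counts over all libraries.

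Among the lymphomas themselves, libraries 53 and 86 each held the highest level of 4 of the 10 genes (40.0%), beside 30.5 and 19.3% of all tested genes. Lymphoma 53 had the highest Cxcr5, Pdcd1, Btla and Cd200, while lymphoma 86 had the highest Cxcl13, Cd40lg, Icos and Il21. The lowest levels were spread over 5 lymphomas, with Cd40lg and Icos lowest in lymphoma 53, Pdcd1 and Sh2d1a in 34, Cxcr5 and Cd200 in 56, Btla and Slamf6 in 72, Cxcl13 in 70 and Il21 at 0 in both 34 and 53. With lymphoma 53 left out, 3 of the 10 genes were still called higher and 6 lower, beside 4207 and 3930 of 15174 tested genes.

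Related genes of the follicular helper programme mostly fell, on both sides of its control. Of 12 regulators known to promote the state, 1 rose and 7 fell (median log2 fold change -1.39), and of 13 known to restrain it, 0 rose and 10 fell (median -2.59), beside a median of 0.04 over all tested genes. Of all tested genes 24.7% rose and 21.9% fell. Bcl6, the factor that defines the lineage, averaged 59.9 CPM in CD4 (SD 11.2, n = 3) and 8.87 CPM in lymphoma (SD 7.88, n = 6). It changed by -2.76 on the log2 scale (SE 0.511, edgeR adjusted p = 0.00120), and by -3.39 without lymphoma 53. Its antagonist Prdm1, which encodes BLIMP1, fell from 23.5 ± 9.01 CPM to 0.745 ± 0.903 CPM (log2 fold change -4.98, SE 0.903, adjusted p = 0.00110), and the change was -5.80 without lymphoma 86.

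Tcf7, which encodes TCF1, was the regulator that rose. It averaged 336 CPM in CD4 (SD 49.5, n = 3) beside 626 CPM in lymphoma (SD 98.3, n = 6). Its change was 0.90 (SE 0.175, edgeR adjusted p = 0.00130), and all 6 lymphomas were above all controls. Maf, a driver of Il21 transcription, fell by 2.27 on the log2 scale (SE 0.663, adjusted p = 0.0190), a call lost without CD4 1 (0.0555), without CD4 3 (0.0503) and without the filter on low counts (0.0629). Batf and Irf4, which act downstream of receptor signals, also fell, with log2 fold changes of -1.01 and -3.73 (-4.48 without lymphoma 86). The call of Batf was lost with lymphomas 34, 70 and 72 averaged (-0.84, adjusted p = 0.0522). Tox did not pass the test (0.04 on the log2 scale, edgeR adjusted p = 0.911). Ascl2, which induces Cxcr5, had at most 3 counts in any control and 0.0654 to 2.83 CPM in lymphoma (edgeR adjusted p = 0.102).

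Of the restraining regulators, Foxo1 had a log2 fold change of -2.88 and Klf2, which keeps T cells out of follicles, one of -4.57. Without lymphoma 53 these were -3.60 and -5.47. Bach2 fell by 5.35 on the log2 scale. Il2ra, the high-affinity IL-2 receptor chain, averaged 52.6 CPM in CD4 (SD 4.52, n = 3), and no lymphoma had more than 6 counts of it (log2 fold change -7.92). B cell markers and the regulatory T cell factor Foxp3 fell in the same comparison. The part of those cells in the falls of the promoting and restraining regulators was not tested.

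**Figure D4:**
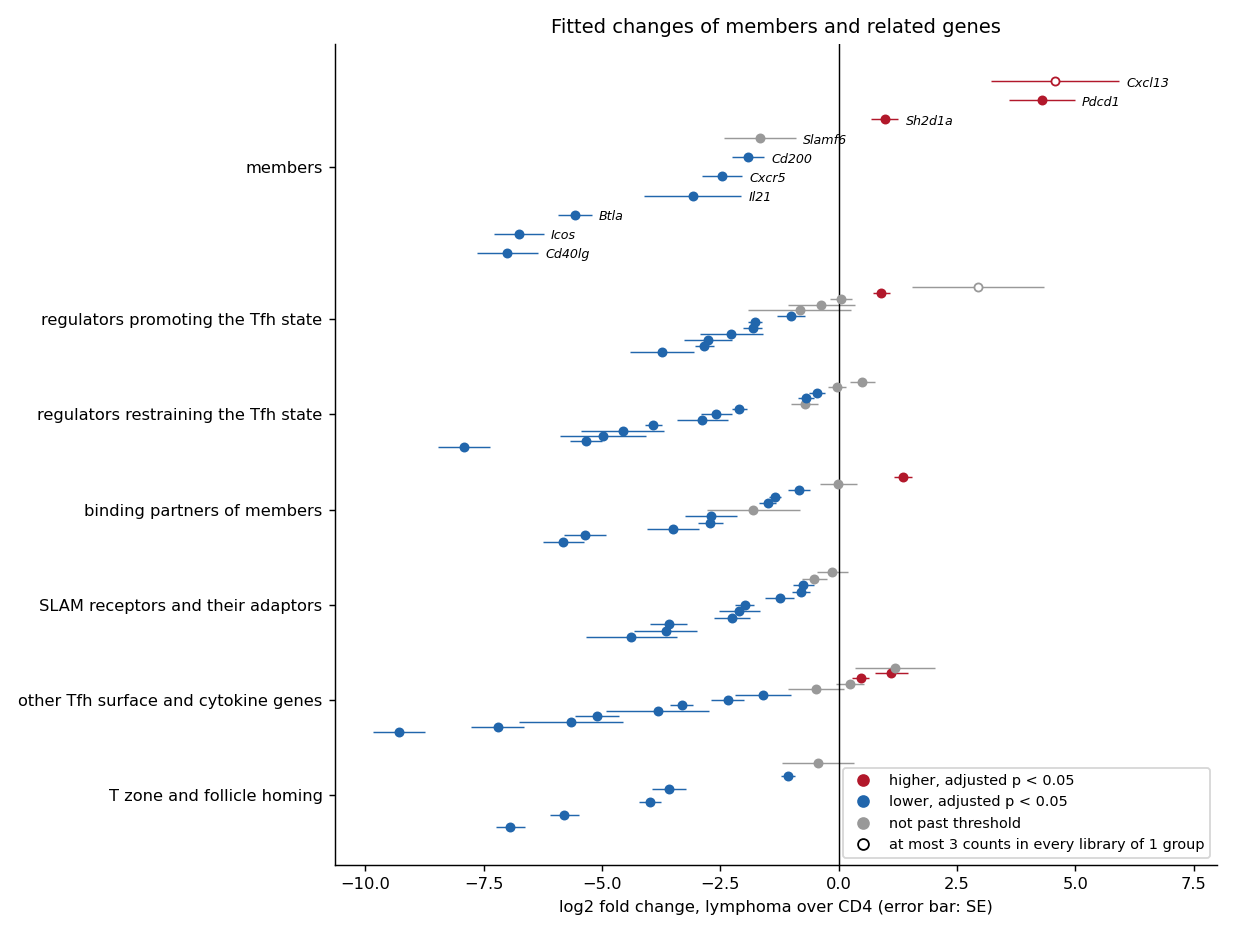
Log2 fold change of lymphoma over CD4 with its SE for the 10 genes and 6 lists of related genes, 1 point a gene, in red or blue where the edgeR adjusted p was under 0.05 and grey otherwise. Open points had at most 3 counts in every library of 1 group, so their fitted size rests on very few counts in that group. Red points are 3 of 10 in the top row and 4 in all the other rows, where 24.7% of all tested genes were higher.

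Genes listed as partners of these proteins were mostly lower as well. The list is broad and also holds Cd160, Cd28, Cd80 and Cd86, related receptors and ligands that are not themselves partners of these proteins. Of its 12 genes 11 were tested, 1 rose and 8 fell, Cd28 and Cd86 among them (median log2 fold change -1.81). The shares over all tested genes were 24.7% risen and 21.9% fallen. Icosl and Cd40, the B cell side of the Icos and Cd40lg signals, fell from 44.6 and 23.9 CPM to 1.10 and 0.409 CPM (log2 fold changes -5.36 and -5.82). B cells are a source of both transcripts and B cell markers fell with them, a part that was not tested. Cd274, which encodes the PD-1 ligand PD-L1, Cd200r1, the receptor for CD200, and Il21r, the IL-21 receptor, had log2 fold changes of -2.72, -2.70 and -1.5. Pdcd1lg2, which encodes the other PD-1 ligand PD-L2, averaged 5.15 CPM in CD4 and 5.09 CPM in lymphoma (edgeR adjusted p = 0.979), and Cd80, a ligand of CD28, did not pass the test (adjusted p = 0.152). The listed gene that rose was Cd160, a further receptor for the ligand of BTLA, which averaged 13.8 CPM in CD4 (SD 0.411, n = 3) and 35.4 CPM in lymphoma (SD 4.90, n = 6). Cd160 rose by 1.36 on the log2 scale (SE 0.195, edgeR adjusted p = 0.000157). That ligand, Tnfrsf14 (HVEM), had 0 counts in all CD4 libraries and at most 8 in a lymphoma and was not tested.

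Among 11 other SLAM receptors and adaptors (median -1.99) 0 rose and 9 fell, where 24.7 and 21.9% of all tested genes did. The largest falls were those of Sh2d1b1, which encodes the SAP relative EAT-2, at -4.38 (SE 0.951, edgeR adjusted p = 0.00265) and Cd244 at -3.66 (SE 0.657, adjusted p = 0.000904), and these became -3.64 for Sh2d1b1 without CD4 3 and -4.61 for Cd244 without lymphoma 53. Both are also known from natural killer cells. Of 5 natural killer cell markers 1 was higher and 2 lower (24.7 and 21.9% of all tested genes). Ncr1 had 8.25 to 9.34 CPM in CD4 and 0 counts in all 6 lymphomas, and Klrd1 had means of 42.6 CPM in CD4 and 0.428 CPM in lymphoma. The part of these cells was not tested. B cell markers fell in the same comparison, and their part in the falls of this list was not tested either. Sh2d1a rose while every called gene of the other SLAM receptors and adaptors listed fell.

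Of 17 other surface and cytokine genes of the programme 13 were tested (median -2.35). Of these 2 rose and 8 fell, where 24.7 and 21.9% of all tested genes did. Cxcr4, a chemokine receptor of germinal centre dark zones, rose by 1.11 (SE 0.353, edgeR adjusted p = 0.0232), a call lost without CD4 1 (0.0871) or CD4 2 (0.0650). Il6st, the signalling chain of the IL-6 receptor, rose by 0.46 (edgeR adjusted p = 0.0434), a call kept in 6 of 19 alternative runs. The call was lost under 3 other scalings (adjusted p from 0.0527 to 0.0973), without any 1 control (0.0643 to 0.127) and without lymphoma 72 or 86 (0.0654 and 0.0529). DESeq2 (0.0543), no filter on low counts (0.0548) and at least 10 counts in every library (0.0620) lost it too. The inhibitory receptor Ctla4 averaged 79.5 CPM in CD4 (SD 40.0, n = 3) and never exceeded 5 counts in a lymphoma, and Tnfsf8, the CD30 ligand, fell by 7.21 on the log2 scale. Tigit and Lag3 were listed at 0 in all 9 libraries, and whether the counting could register them is not known, so nothing is read from these zeros.

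Receptors that place T cells outside the follicle fell too, 5 of 6 with 0 rises (median -3.79), where 21.9% of all tested genes fell and 24.7% rose. Ccr7, the receptor for T zone chemokines, the egress receptor S1pr1 and Gpr183 (EBI2) had log2 fold changes of -3.59, -5.80 and -6.94. Of 6 regulatory T cell markers 0 were higher and 3 lower (24.7 and 21.9% of all tested genes). Their lineage factor Foxp3 ranged from 26.1 to 68.5 CPM among the CD4 libraries, and the lymphomas held 6 counts of it at most. Regulatory T cells also express Icos and Ctla4, and their part in those values was not tested.

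The surroundings of the genes in the genome were read from GENCODE M21 by taking the 2 nearest tested genes on each side, a rule added after the values had been seen. Of 36 such neighbours outside the list, 5 were higher, 10 lower and 21 not called. Over all tested genes 24.7% were higher, 21.9% lower and 46.6% called in either direction. Some neighbours lay far off, up to 4010 kb away (Gm7722, beside Sh2d1a). Btla and Cd200 are themselves neighbours 124 kb apart, and the next tested gene beyond Cd200, Gcsam, a germinal centre gene, rose by 3.69 (SE 0.635, edgeR adjusted p = 0.000624). Ctla4, which fell, lies 62.1 kb from Icos. Cd84, 26.8 kb from Slamf6, fell by 1.25 (SE 0.307, adjusted p = 0.00595). Il2, 96.8 kb from Il21, changed by 0.81 on the log2 scale without passing the test (SE 0.592, edgeR adjusted p = 0.291), and the nearest tested genes on either side of Pdcd1 were D2hgdh, 186 kb away, with a change of -0.64 (adjusted p = 0.0630), and Fam174a, 1260 kb away, with one of -1.07 (adjusted p = 0.0102).

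The tested genes most like each of 9 of the 10 were found by the mean absolute difference in log2 CPM over the 9 libraries, after each gene was centred on its own mean. Cd302 was closest to Cd200 (0.15), Camsap2 and Tmsb4x to Cxcr5 (0.25 each), S1pr1 to Btla (0.27) and Necab3 to Pdcd1 (0.29). Nlrp1b was closest to Il21 (0.35), Gpr174 to Cd40lg (0.38), Pax5, the B cell factor, to Icos (0.45), Trps1 to Slamf6 (0.54) and Fibcd1 to Cxcl13 (0.66). These values share the difference between the groups, which was called at 46.6% of tested genes.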

How the data were processed

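RNA from 6 lymphomas and 3 CD4 T cell preparations was sequenced from transcript 3′ ends. The authors deposited a raw read count per Ensembl gene and library, with symbols and 5 closing summary rows that entered neither library sizes nor tests. Gene counts made up 38.7 to 49.1% of the column totals in lymphoma and 27.8 to 35.0% in CD4. Per the submitters' processing notes, FastQC, HISAT2, SAMtools and HTSeq were used with mm10 (GRCm38). Versions, annotation and strand setting are not given in the sources used here. By default HTSeq leaves reads in more than 1 gene out of gene counts, which can lower overlapping genes.

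Counts were tested in R 4.3.3 with edgeR 4.0.16: filterByExpr with a minimum count of 10, TMM, glmQLFit (robust) and glmQLFTest with no covariate over all 9 libraries. Benjamini-Hochberg adjustment covered the 15401 tested genes, with 0.05 as threshold. The SE is the absolute log2 fold change over the root of F. The script was tested on simulated data. Log2 CPM used a prior count of 2. Alternatives used DESeq2 1.42.0, limma 3.58.1 (voom), other scalings, filters and thresholds, each library left out, and lymphomas 34, 70 and 72 averaged. Gene positions came from GENCODE M21 and the Cxcl13 interval is the exact Clopper-Pearson one (scipy 1.17.1). Where a symbol had 2 rows, the row with more counts was used. Fdcsp, a listed stromal gene, was not analysed here.

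The 10 genes and all lists were chosen with earlier results of these data known. Named genes were the 10, a fixed set of regulators, partners and markers, the 2 largest rises and falls past the threshold in each related list, and the 2 nearest genes in pattern, of which the text gives the nearest. A few genes that this rule names are not reported here. Other genes named (Cd2, Ccl19, Ccl21a, Tigit, Lag3, Pdcd1lg2, Cd28, Cd80, Cd86, C1qa, C1qb, Adgre1, Cd68, Itgam, Cd14, Ly6c2, S100a8, Flt3, Itgax, Ncr1, Klrd1, Gzma, Tox2, Pou2af1, S1pr2 and genomic neighbours) were added after their values were seen.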

Additional observations from a re-analysis of the deposited data

Results flagged for a closer look

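Each gene named by the fixed rule and each marker list was examined for a lymphoma whose gap to its nearest neighbour exceeded Dixon's 95% critical value. That value flags about 1 in 20 groups of independent, normally distributed values, or 3.15 of 63 results. CPM entered on the linear scale, the results share the same lymphomas, and every flag was on the high side. The 3.15 is therefore no chance expectation for these data. The critical value was exceeded for 17 of 63, and 11 of the 17 concerned lymphoma 53. No cause was tested.

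Lymphoma 53 stood high for Pdcd1 at 257 CPM (next 94.9), Cxcr5 at 25.4 CPM (next 10.6), Bcl6 at 24.7 CPM (next 6.80), Batf at 22.4 CPM (next 12.4), Foxo1 at 167 CPM (next 43.0), Klf2 at 105 CPM (next 30.7), Cd244 at 8.30 CPM (next 1.59) and Cd8a at 29.4 CPM (next 1.53). Its summed markers were also high for plasmacytoid dendritic cells at 367 CPM (next 119), endothelium at 83.0 CPM (next 65.8) and T cells at 3800 CPM (next 2640).

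Lymphoma 86 stood high for Cxcl13 at 7.57 CPM (next 2.64) and Irf4 at 6.13 CPM (next 2.37). It also stood high for Foxp3 at 0.433 CPM and Ctla4 at 0.360 CPM, from 6 and 5 counts. Lymphoma 56 stood high for summed myeloid markers at 1240 CPM (next 429) and for Fcer2a at 0.218 CPM, which is 3 counts.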

How the results depend on the processing

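No value past the threshold changed sign under any alternative run. Tox, which did not pass the test, had a log2 fold change of 0.04 that ran from -0.09 (without lymphoma 53) to 0.22 and was also below 0 under RLE (-0.02), upper quartile (-0.07) and library size (-0.01) scaling. Of 1316 recomputed values, 1256 kept their side of the threshold (counts: stayed within 1.5 times), 53 lost a call or fell below that range and 7 gained a call or rose above it. The calls of Cxcr5, Cd40lg, Icos, Pdcd1, Btla and Cd200 held wherever these genes were tested. Their log2 fold changes ranged from -2.92 to -2.28, -7.51 to -6.49, -7.15 to -6.55, 3.71 to 4.70, -5.90 to -5.34 and -2.04 to -1.77. Of the 10 genes, 1 was called higher at an adjusted p under 0.01 (Pdcd1), beside 2595 of 15401 tested genes. With 1 library left out, 1 to 3 were called higher (fewest without CD4 2) and 5 to 7 lower. In those runs 14852 to 16146 genes were tested, 3143 to 4207 were called higher and 2728 to 3930 lower. With at least 10 counts required in every library, 3 were called lower, beside 2627 of 10581 tested genes. Cd40lg, Icos, Il21 and Cxcl13 were then not tested. Sh2d1a, at 1.96-fold, did not reach a 2-fold rule. Positions relative to the CD4 range were 59 of 60 pairs outside under RLE, upper quartile and library size scaling alike. No paired analysis was possible because the groups share no replicate number. Depth limits Il21 and Cxcl13 most, with at most 37 and 105 counts in any library.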

Other observations

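Lymphoma 53 also held the highest level of 8 of the 12 regulators that promote the follicular helper state (among them Bcl6, Ascl2, Batf, Tox and Tox2), or 66.7%, beside 30.5% of all tested genes. This was noticed after the values were seen, concerns 1 tumour and was not tested. Tox2, a partner of TCF1 in these cells, had 42.8 CPM there and 0.291 to 8.56 CPM in the other lymphomas, against 14.8 to 24.4 CPM in CD4. Pou2af1, a coactivator of B cells and follicular helper cells, had 241 CPM there and 29.3 to 46.7 CPM in the other lymphomas, against 74.6 to 107 CPM in CD4. S1pr2, which confines cells to germinal centres, had 46.2 CPM there and 2.62 to 10.1 CPM in the others, against 2.56 to 8.67 CPM in CD4. Maf went the other way, with 3.74 CPM in lymphoma 53 and 39.0 to 110 CPM in the others. In the same library Cd40lg and Il21 had 0 counts and Icos 1 count.

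Markers of other cells were read for the remaining lists, beside 24.7% higher and 21.9% lower over all tested genes. Of 6 plasmacytoid dendritic cell markers 6 were lower and 0 higher, and Siglech had 64.5 ± 4.23 CPM (SD, n = 3) in CD4 and at most 6 counts in a lymphoma. Endothelial markers had 2 lower and 0 higher of 3 tested, thymic epithelial markers 1 higher and 1 lower of 2 tested, and stromal and follicular dendritic markers 1 higher and 0 lower of 6 tested. Natural killer cell markers had 1 higher and 2 lower of 5. Those that fell were Ncr1, with 0 counts in every lymphoma, and Klrd1, by 6.60 on the log2 scale. The one that rose was Gzma, a cytotoxic granule protease, which averaged 67.8 CPM in CD4 (SD 5.46, n = 3) and 517 CPM in lymphoma (SD 164, n = 6), a rise of 2.93 on the log2 scale (SE 0.288, edgeR adjusted p = 1.03e-05).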
